A study of Mus musculus with 8 samples.

Results

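Translation initiation factors bring the small ribosomal subunit, the initiator tRNA and the large subunit together on a messenger RNA, and elongation factors then carry aminoacyl-tRNA to the ribosome and move it along the message. eIF2 and its exchange factor eIF2B, and the cap-binding protein eIF4E with its 4E-BP inhibitors, are the steps at which cells set the rate of initiation. Insulin-producing beta cells are known to rely on control at eIF2 because their secretory load is high. The factors described here are all rows of the deposited gene table whose symbol begins with Eif or Eef and a digit. Y-linked rows and the eIF2 kinases Eif2ak1 to Eif2ak4 were left out. The rule gave 60 of 24469 rows, of which 50 were Eif (initiation) and 10 were Eef (elongation) rows. Of these, 59 had enough counts to be tested.

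RNA was sequenced from hand-picked pancreatic islets of mice aged 8 weeks. The knockout (KO) group was 4 mice on a C57BL/6 background with loss of function of the snoRNAs encoded in introns of Rpl13a, which are U35a, U34, U33 and U32a. The wild-type (WT) group was 4 C57BL/6 mice with intact snoRNAs. Their class directs methylation of the ribose in ribosomal RNA, so the comparison asks whether messages of the translation factors differ in level when these guides are missing. The labels give no littermate or colony information, so these cannot be told apart from genotype. They give no sex either, but Xist counts were high in KO replicates 1 and 4 and in WT replicate 4 and low in the other 5 libraries, so Xist was also used as a covariate.

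Counts assigned to genes ranged between 21235163 and 32289543 in KO libraries and between 24840794 and 41148282 in WT libraries. The 4 targeted snoRNA rows together held 0 counts in KO libraries and 15 in WT libraries. All 10 beta-cell markers had counts and took 8.65 to 16.3% of the assigned counts in KO and 10.03 to 23.97% in WT libraries. Exocrine RNA differed widely between preparations: all 34 acinar genes of the list found in the table had counts, none being at 0, and they took 22.0, 5.33, 27.9 and 17.7% of counts in KO replicates 1 to 4, against 26.3, 2.04, 14.3 and 4.96% in WT replicates 1 to 4. Ductal, endothelial, macrophage and stellate marker lists each stayed below the acinar list by a wide margin, with at most 0.0215% of counts in KO and 0.0292% in WT libraries. In bulk islets, fewer cells of a type and less RNA per cell cannot be told apart.

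Many messages of the translation machinery begin with a 5' terminal oligopyrimidine tract, a C followed by a run of C or T, through which mTOR and LARP1 control their translation. A C followed by at least 4 bases that are each C or T was searched on the transcribed strand, only at the first base of each start annotated by RefSeq on GRCm38.p6. It stood at a start of 2 of the 45 members with a sequence in the table (4.44%), of 14 of 61 ribosomal protein genes (23.0%) and of 813 of 27025 genes in all (3.01%). The 4 windows below run from 10 bases before the annotated start to 20 bases from it. They show both members with the tract, in capitals, beside Eef1b2 and Eef2, elongation factor messages counted in this class in the literature that hold no such tract at the annotated base. The start used in islets may differ from the annotated base, and no match says only that the tract is not at that base.
Eif3f (chr7:108934405-108934434, + strand): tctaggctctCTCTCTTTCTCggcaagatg
Eif2s3x (chrX:94212632-94212661, - strand): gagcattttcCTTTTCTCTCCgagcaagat
Eef1b2 (chr1:63176821-63176850, + strand): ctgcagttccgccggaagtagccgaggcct
Eef2 (chr10:81176621-81176650, + strand): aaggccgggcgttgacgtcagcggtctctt

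The estimates of the members with the tract lay on either side of 0, and neither had an unadjusted p under 0.05 in edgeR's test. Eif3f, a subunit of the eIF3 scaffold, had a log2 fold change of KO over WT of -0.05 ± 0.09 (SE), and Eif2s3x, the gamma subunit of eIF2, one of 0.27 ± 0.18. Of 9 members listed as oligopyrimidine messages from the literature on this class, 7 had positive values, with a median log2 fold change of 0.11. They spanned Eef2 at -0.08 ± 0.11 and Eef1b2 at 0.50 ± 0.22.

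Levels are given as CPM, counts scaled to the TMM-adjusted library size, and per kilobase of the longest coding transcript where genes are compared with each other. Eef1a1, the GTPase that delivers aminoacyl-tRNA, was the most abundant member per length, at 757 ± 107 CPM per kilobase in KO and 648 ± 138 in WT (SD, n = 4 each). On the CPM scale it made up 31.6% of the sum of all members over the 8 libraries. Eif1, the start-codon selection factor, followed at 246 ± 41.8 CPM per kilobase in KO and 182 ± 16.0 in WT. Next were Eef2, the translocation GTPase, at 120 ± 14.6 in KO and 127 ± 5.01 in WT, and the helicase Eif4a1 at 100 ± 18.9 in KO and 73.3 ± 19.5 in WT, again in CPM per kilobase. In KO libraries the level of Eef2 lay above that of Eif4a1 by about the spread between mice, while in WT libraries the gap exceeded that spread.

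Subunits of the same complex were far from equal in level. Of eIF2, the GTPase that delivers the initiator tRNA, the beta subunit gene Eif2s2 was at 33.0 ± 6.82 CPM per kilobase in KO and 25.7 ± 7.78 in WT. The gamma subunit gene Eif2s3x was at 10.3 ± 2.55 in KO and 8.59 ± 1.43 in WT, and the alpha subunit gene Eif2s1, whose product the stress kinases phosphorylate, at 1.38 ± 0.086 in KO and 0.996 ± 0.281 in WT. These levels depend on the transcript length used and on where randomly primed reads fall. At the low end, Eif1ax was at 0.769 ± 0.221 CPM per kilobase in KO and 0.523 ± 0.181 in WT, and Eef1e1, a scaffold protein of the multisynthetase complex, at 0.616 ± 0.088 in KO and 0.589 ± 0.237 in WT. Eif4e1b, the oocyte form of the cap-binding protein, had 0 counts in each KO library and 2, 1, 1 and 1 in WT replicates 1 to 4, under the limit of 3 counts that a count of 0 allows in a library, and was not tested.

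No initiation or elongation factor passed a false discovery rate (FDR) of 0.05 in edgeR's quasi-likelihood test of 13617 genes, where 0.0147% of all genes passed. The smallest adjusted p among the 59 members was 0.116. At an unadjusted p under 0.05, 12 members were higher in KO and 1 was lower. That is 20.3% of members higher against 8.42% of all genes, and 1.69% lower against 10.3% of all genes, or 22.0% in either direction against 18.7%. The 12 higher rows include Eif3j1 and Eif3j2, which hold a single measurement, as described below, so that measurement is counted more than once. With no composition factor, 0 members were higher and 0 lower at that p, where 2.21% of all genes were higher and 3.08% lower. Limma-trend called 0 members, where 0.0147% of all genes passed. DESeq2 called 4 of the 57 members for which it gave an adjusted p, all higher in KO. They were Eif1, Eif1b, Eif3m and Eif5, where DESeq2 called 5.34% of the 9854 genes for which it gave an adjusted p, 2.05% as higher and 3.29% as lower. All KO libraries lay above all WT libraries for 4 of 59 members (6.78%) and below them for 0, where the groups did not overlap for 8.34% of all genes, with KO above for 3.68% and below for 4.66%.

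**Figure D1:**
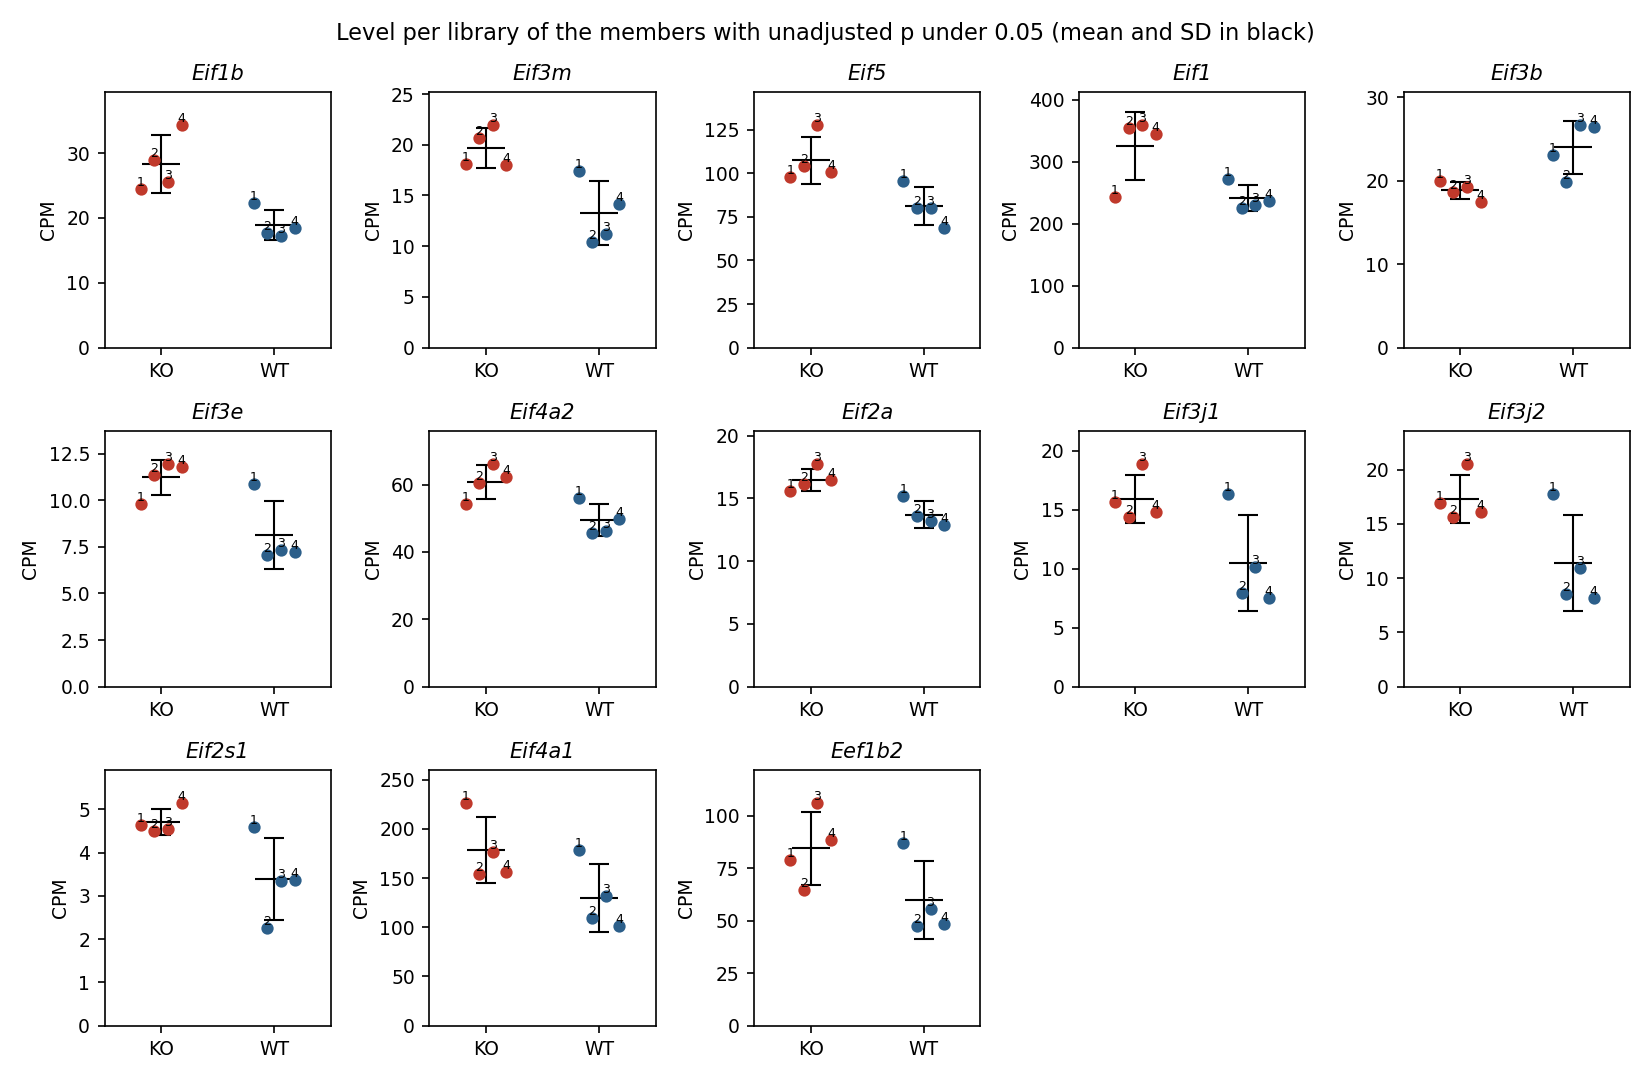
Level in CPM (vertical axes, from 0) of each member with an unadjusted p under 0.05 in edgeR's test, for 4 KO mice (left) and 4 WT mice (right), with replicate numbers beside the points and the mean ± SD in black. WT replicate 1 is the highest WT library in all panels except Eif3b, and KO lies wholly above WT only for Eif1b, Eif3m, Eif5 and Eif2a among those shown.

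The 4 eIF1 and eIF1A rows had positive estimates, of which those of Eif1b and Eif1 had an unadjusted p under 0.05. Eif1b, a paralog of Eif1, had 24.5, 28.9, 25.6 and 34.3 CPM in KO replicates 1 to 4 and 22.4, 17.7, 17.2 and 18.4 CPM in WT replicates 1 to 4. All KO libraries lay above all WT libraries, and WT replicate 1 was nearest to them. The log2 fold change stood at 0.58 ± 0.13, and its adjusted p from edgeR's test at 0.116. Eif1 itself had 242, 354, 358 and 345 CPM in KO replicates 1 to 4 and 271, 225, 230 and 237 CPM in WT replicates 1 to 4. KO replicate 1 lay inside the WT range, and the log2 fold change was 0.43 ± 0.14 (edgeR adjusted p = 0.169). The eIF1A genes Eif1ax and Eif1a, which help the scanning ribosome find the start codon, had log2 fold changes of 0.55 ± 0.28 and 0.30 ± 0.25. The median over the 4 rows was 0.49, where the median of all genes was 0.01.

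Eif5, the GTPase-activating protein of eIF2, had 97.99, 104, 127 and 101 CPM in KO replicates 1 to 4 and 95.5, 80.2, 80.2 and 68.5 CPM in WT replicates 1 to 4. The genotypes did not overlap, although WT replicate 1 came close to KO replicate 1. The log2 fold change was 0.41 ± 0.12 (edgeR adjusted p = 0.159). Eif5b, the GTPase that joins the ribosomal subunits, had one of 0.36 ± 0.18 with overlapping groups. Of the genes for eIF2, Eif2s1 had 4.65, 4.50, 4.55 and 5.14 CPM in KO replicates 1 to 4 and 4.60, 2.26, 3.35 and 3.36 CPM in WT replicates 1 to 4. WT replicate 1 fell among the KO libraries and the other WT libraries lay below them (log2 fold change 0.47 ± 0.20). Eif2s2 had a log2 fold change of 0.36 ± 0.22, which was 0.23 without KO replicate 3, 0.57 without WT replicate 1 and 0.15 once acinar share was in the fit. Eif2a, which can deliver initiator tRNA without eIF2, was at 16.5 ± 0.90 CPM in KO and 13.7 ± 1.05 CPM in WT (SD, n = 4 each), with a log2 fold change of 0.27 ± 0.10 and no overlap between groups.

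The exchange factor eIF2B was centred near 0. Its 5 subunit genes had log2 fold changes between -0.17 ± 0.13 for Eif2b4 and 0.17 ± 0.17 for Eif2b2, with a median of -0.03 and none at an unadjusted p under 0.05. Eif2b2 was highest in KO replicate 1, and without that library its value was -0.03. Eif2d, an eIF2-independent factor also active in recycling, had a log2 fold change of -0.05 ± 0.13. The 4 eIF2 kinase genes, which act on the alpha subunit upstream of eIF2B, lay between -0.01 and 0.08.

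The subunits of eIF3, the scaffold of the preinitiation complex, spread in both directions. Eif3m had 18.06, 20.7, 21.9 and 18.02 CPM in KO replicates 1 to 4 and 17.4, 10.4, 11.2 and 14.1 CPM in WT replicates 1 to 4. KO lay above WT without overlap (log2 fold change 0.57 ± 0.16, edgeR adjusted p = 0.149). Eif3e, like Eif3m a subunit of the octameric core, had 9.82, 11.4, 11.9 and 11.8 CPM in KO replicates 1 to 4 and 10.9, 7.07, 7.33 and 7.23 CPM in WT replicates 1 to 4. WT replicate 1 lay inside the KO range and far from the other WT libraries (log2 fold change 0.47 ± 0.15). By contrast Eif3b, a subunit outside that core that carries an RNA recognition motif, had 20, 18.7, 19.2 and 17.5 CPM in KO replicates 1 to 4 and 23.1, 19.9, 26.6 and 26.4 CPM in WT replicates 1 to 4. WT replicate 2 alone among WT libraries fell in the KO range, and the log2 fold change was -0.35 ± 0.11 (edgeR adjusted p = 0.169).

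Eif3g and Eif3d had log2 fold changes of -0.18 ± 0.12 and -0.14 ± 0.12, while Eif3a and Eif3l had 0.17 ± 0.13 and 0.15 ± 0.11. The remaining core and peripheral subunits, Eif3c, Eif3i, Eif3h, Eif3k and Eif3f, lay between -0.05 and 0.07. Eif3j1 and Eif3j2 are near-identical copies whose deposited values stood in a ratio of 1.08 in all 8 libraries, so they are a single measurement divided by the authors' counting. Their sum was 32.6, 30.03, 39.4 and 30.9 CPM in KO replicates 1 to 4 and 34.1, 16.5, 21.1 and 15.7 CPM in WT replicates 1 to 4. WT replicate 1 was above 3 of the KO libraries and the other WT libraries were below all of them. A ratio of Eif3m to Eif3b counts, which needs no scaling and was chosen after the values were seen, was 0.90, 1.11, 1.14 and 1.03 in KO and 0.75, 0.52, 0.42 and 0.53 in WT replicates 1 to 4. Over the 14 eIF3 rows 9 were positive and the median log2 fold change was 0.05.

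Of the eIF4 group, which binds the cap and unwinds the leader, the helicase genes Eif4a1 and Eif4a2 had an unadjusted p under 0.05. Eif4a1 had 226, 154, 177 and 156 CPM in KO replicates 1 to 4 and 178, 110, 131 and 101 CPM in WT replicates 1 to 4. The groups overlapped through WT replicate 1, and the log2 fold change was 0.46 ± 0.19 (edgeR adjusted p = 0.240). Eif4a2 was at 60.8 ± 4.91 CPM in KO and 49.4 ± 4.78 CPM in WT, with a log2 fold change of 0.30 ± 0.10 (edgeR adjusted p = 0.177). The cap-binding gene Eif4e had 0.10 ± 0.12, its relatives Eif4e2 and Eif4e3 had -0.11 ± 0.11 and 0.08 ± 0.13, and the scaffold genes Eif4g1, Eif4g2 and Eif4g3 had -0.08 ± 0.10, 0.11 ± 0.10 and -0.10 ± 0.10. The helicase cofactors Eif4b and Eif4h had 0.11 ± 0.12 and -0.08 ± 0.09. Eif4a3, a relative of the helicases that belongs to the exon junction complex, had -0.07 ± 0.10. Eif6, which keeps free large subunits from joining, had -0.17 ± 0.11.

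**Figure D2:**
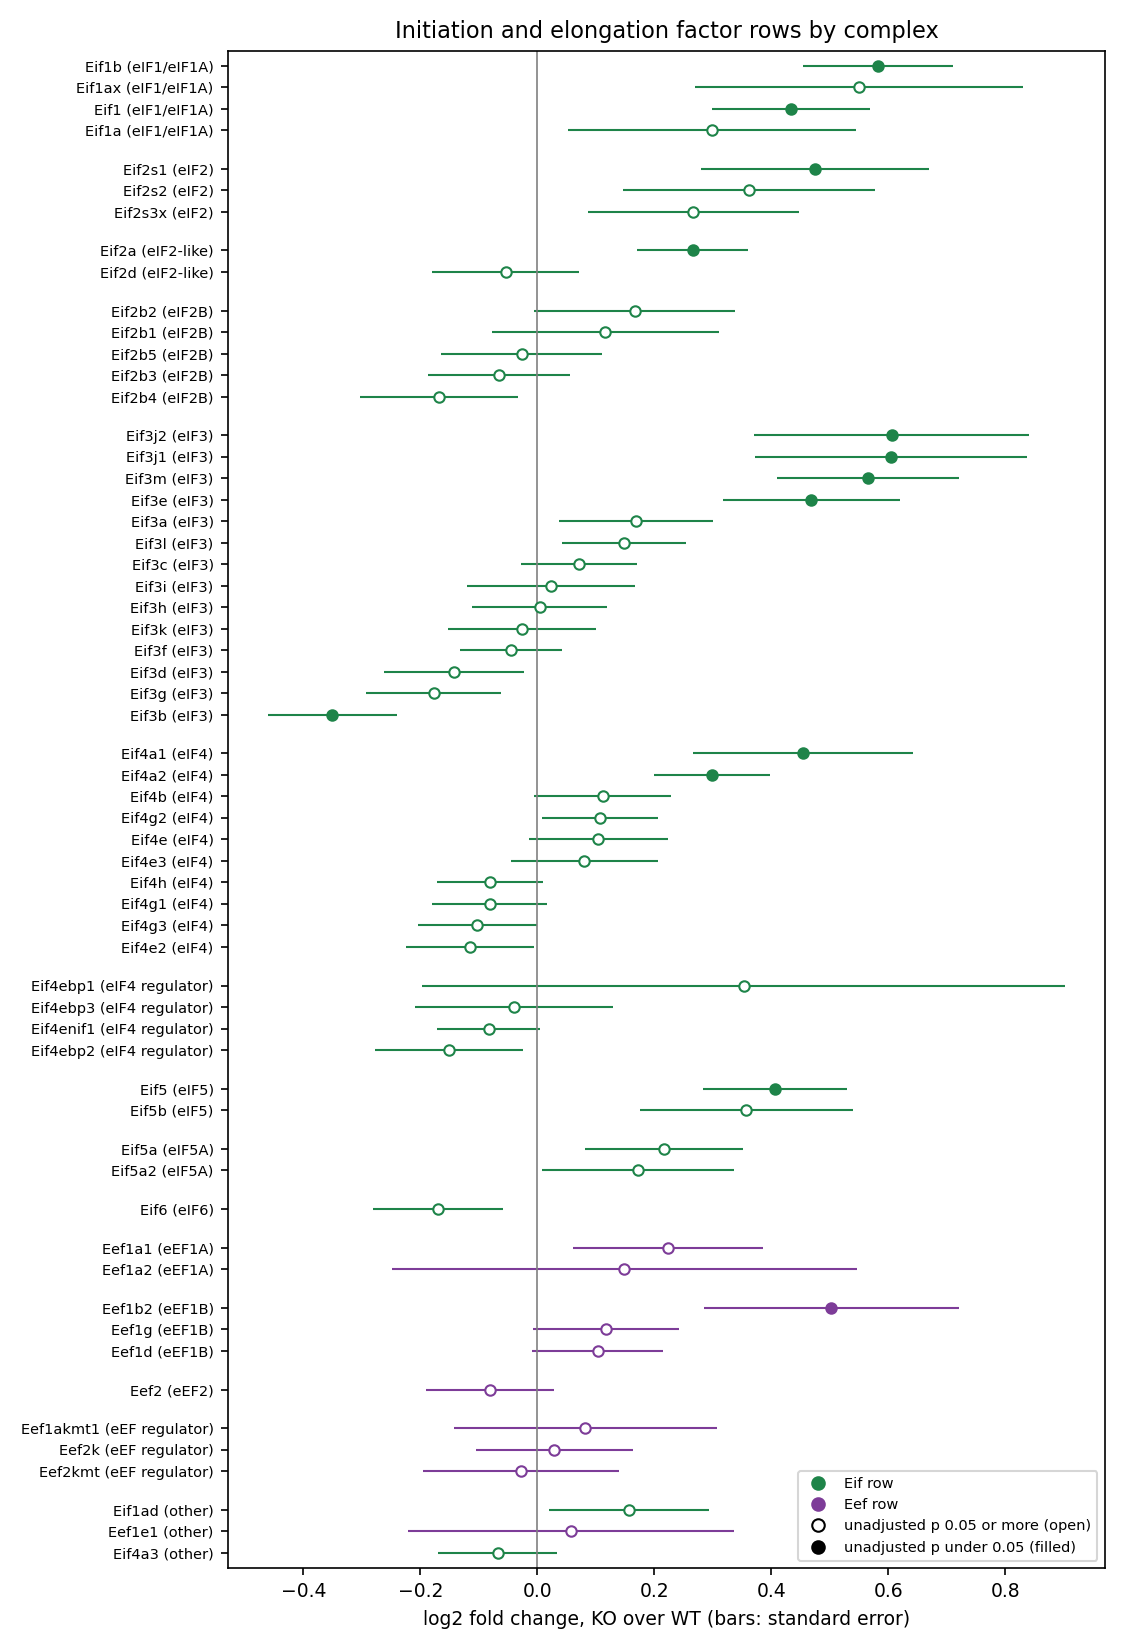
Log2 fold change of KO over WT (horizontal axis) with its standard error for the 59 tested rows, grouped by complex from initiation at the top to elongation and other rows at the bottom. Filled points have an unadjusted p under 0.05, and none passed FDR 0.05. The eIF1/eIF1A rows and the eIF2 rows all lie right of 0, while eIF3 runs from -0.35 for Eif3b to 0.61 for Eif3j2.

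Among the elongation factors the estimates were small except for Eef1b2. This gene encodes the catalytic exchange subunit that recharges eEF1A with GTP. Eef1b2 had 79.2, 64.6, 106 and 88.6 CPM in KO replicates 1 to 4 and 87.1, 47.6, 55.7 and 48.5 CPM in WT replicates 1 to 4. WT replicate 1 lay among the KO libraries, and the other WT libraries lay below all of them. The log2 fold change was 0.50 ± 0.22 (edgeR adjusted p = 0.258). The other exchange subunits Eef1g and Eef1d had log2 fold changes of 0.12 ± 0.12 and 0.10 ± 0.11.

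Eef1a1 had 1300, 1193, 1637 and 1304 CPM in KO replicates 1 to 4 and 1508, 972, 1175 and 997 CPM in WT replicates 1 to 4. The groups overlapped, with a log2 fold change of 0.22 ± 0.16 (edgeR adjusted p = 0.463). It was 0.11 without KO replicate 3, 0.36 without WT replicate 1 and 0.083 once acinar share was in the fit. Its muscle and neuron paralog Eef1a2 was at 2.58 ± 1.33 CPM in KO and 2.30 ± 0.94 CPM in WT. Eef2 had 406, 322, 411 and 341 CPM in KO replicates 1 to 4 and 404, 373, 405 and 383 CPM in WT replicates 1 to 4, a log2 fold change of -0.08 ± 0.11. The ratio of Eef1b2 to Eef2 counts, again chosen after the values were seen, was 0.195, 0.201, 0.258 and 0.260 in KO and 0.216, 0.127, 0.138 and 0.127 in WT replicates 1 to 4. Eef2k, the kinase that inactivates eEF2, had a log2 fold change of 0.03 ± 0.13, and the methyltransferase genes Eef2kmt and Eef1akmt1 had -0.03 ± 0.17 and 0.08 ± 0.22. Eef1e1 had 0.06 ± 0.28. Eif5a, which carries an Eif symbol but aids elongation at difficult peptide bonds, had 0.22 ± 0.13, and its paralog Eif5a2 had 0.17 ± 0.16.

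Initiation and elongation rows did not part by more than the spread between libraries. The median log2 fold change was 0.11 over 49 initiation rows, of which 31 were positive, and 0.09 over 10 elongation rows, of which 8 were positive. Of all genes tested 51.3% were positive, and their median was 0.01. With no composition factor the medians were 0.004 for initiation and -0.003 for elongation rows, where that of all genes was -0.11 and 0.353% of all genes passed FDR 0.05. Per library, the elongation median less the initiation median was -0.006 ± 0.049 in KO and 0.004 ± 0.052 in WT on the log2 scale (SD, n = 4 each). The log2 ratio of summed elongation to summed initiation CPM was -0.30, -0.38, -0.11 and -0.25 in KO replicates 1 to 4 and -0.11, -0.27, -0.20 and -0.31 in WT replicates 1 to 4. These ranges overlap, and Eef1a1 alone made up 67.9 to 71.6% of the elongation sum in KO and 65.0 to 70.7% in WT. In classes by role, Eif5a and Eif5a2 were counted as elongation, while regulators and rows of other roles (Eif1ad, Eif4a3, Eif6 and Eef1e1) were left out. The difference of medians was then 0.05 in place of -0.02.

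On the TMM-adjusted scale the members' level in a library moved with its exocrine share. The TMM factors ran the other way, at 0.70 in KO replicate 3 and 0.75 in WT replicate 1. They were 1.33 in KO replicate 2 and 1.34 in WT replicate 2. The values given here are thus levels relative to other genes, and the order of libraries by plain share of counts was not examined. The median deviation of initiation rows from their mean over libraries was 0.06, -0.02, 0.15 and -0.01 in KO replicates 1 to 4 and 0.11, -0.21, 0.01 and -0.14 in WT replicates 1 to 4, on the log2 scale. For elongation rows it was 0.10, -0.09, 0.13 and 0.02 in KO and 0.17, -0.23, 0.05 and -0.20 in WT replicates 1 to 4. The lowest values belonged to WT replicates 2 and 4, which with KO replicate 2 were poorest in acinar RNA, and the highest to WT replicate 1 and KO replicate 3, which were richest. Ribosomal protein rows followed the same libraries over a wider range, 0.46 in KO replicate 3 against -0.43 in WT replicate 2. When the share of acinar counts entered the fit, the median log2 fold change of KO over WT was 0.04 for initiation and 0.01 for elongation rows. Eef1b2 then had 0.30 ± 0.13, Eif1b 0.56 ± 0.13, Eif3m 0.49 ± 0.15 and Eif5 0.34 ± 0.12. No member passed FDR 0.05 in that edgeR fit, where 0.022% of all genes passed, while 10 were higher and 1 was lower at an unadjusted p under 0.05. Those are 16.9% and 1.69% of members, where 7.62% of all genes were higher and 7.39% lower in that fit.

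**Figure D3:**
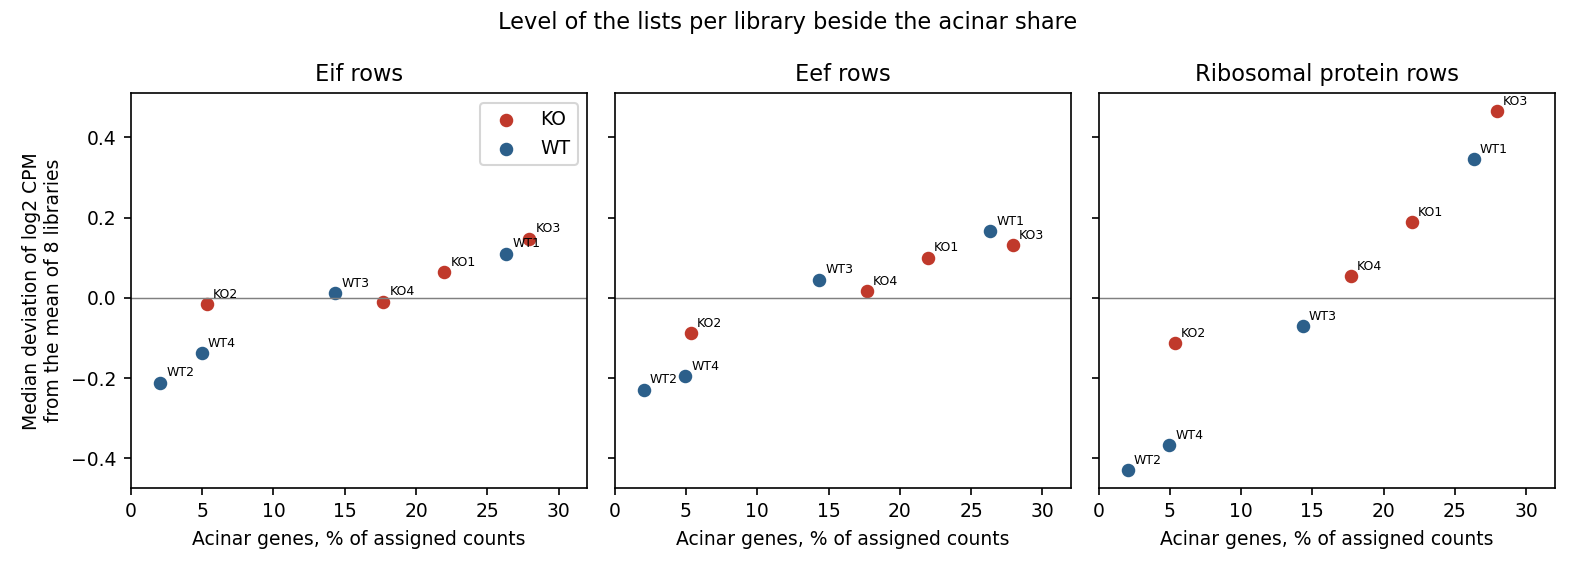
Median deviation of log2 CPM from the mean of the 8 libraries (vertical axes) against the share of counts on acinar genes (horizontal axes, percent) for Eif, Eef and ribosomal protein rows, with a point for each KO and WT library. The lowest point in all panels is WT2, at 2.04% acinar counts, and the highest are KO3 and WT1, at 27.9 and 26.3%.

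In that fit, a test of the acinar coefficient itself, added after the data were seen, called 5 of 59 members past FDR 0.05 (8.47%), where it called 2.94% of all genes and 2.84% with a positive coefficient. All 5 were higher with more acinar RNA on the TMM-adjusted scale: Eif4ebp1, Eif1ax, Eif2s2, Eef1b2 and Eif5b. The coefficient was positive for 52 of 59 members (88.1%), against 45.2% of all genes, and passed for 45 of 79 ribosomal protein rows. Without WT replicate 1, Eif4ebp1 was the single member called where 1.22% of all genes were called, and without KO replicate 2 there were 9 where 4.26% were called. Eif4ebp1 encodes the 4E-BP that releases eIF4E when mTOR is active. It had 11.2, 4.56, 12.2 and 5.85 CPM in KO replicates 1 to 4 and 12.6, 2.86, 6.98 and 3.95 CPM in WT replicates 1 to 4. The highest levels were in KO replicates 1 and 3 and WT replicate 1, the libraries richest in acinar RNA. KO replicate 4, with 17.7% acinar counts, lay below WT replicate 3, with 14.3%. Its level differed by 0.58 ± 0.07 on the log2 scale for each doubling of the acinar share (adjusted p = 0.00066 in edgeR's test). The log2 fold change of KO over WT was 0.35 ± 0.55, the widest error of any member, and -0.07 with the acinar share in the fit. The relatives Eif4ebp2 and Eif4ebp3 had -0.15 ± 0.13 and -0.04 ± 0.17, and Eif4enif1, which carries eIF4E into the nucleus, had -0.08 ± 0.09.

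Eif2s3x lies on the X chromosome and is known to escape X inactivation in mice. It had 44.9, 27.5, 32.2 and 46.2 CPM in KO replicates 1 to 4 and 32.3, 26.3, 28.4 and 38.2 CPM in WT replicates 1 to 4. The 3 highest libraries, KO replicates 1 and 4 and WT replicate 4, were those with 11458, 20491 and 20935 Xist counts, where the other libraries had 74 to 100 in KO and 51 to 158 in WT. With high or low Xist as a covariate, in a fit where 0.0147% of all genes passed FDR 0.05, its log2 fold change was 0.12 ± 0.11, against 0.27 ± 0.18 without it. Eif1ax, the other X-linked member tested, was at 4.47, 2.41, 5.08 and 3.95 CPM in KO and 3.91, 1.72, 2.90 and 2.30 CPM in WT replicates 1 to 4, an order that Xist did not divide.

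**Figure D4:**
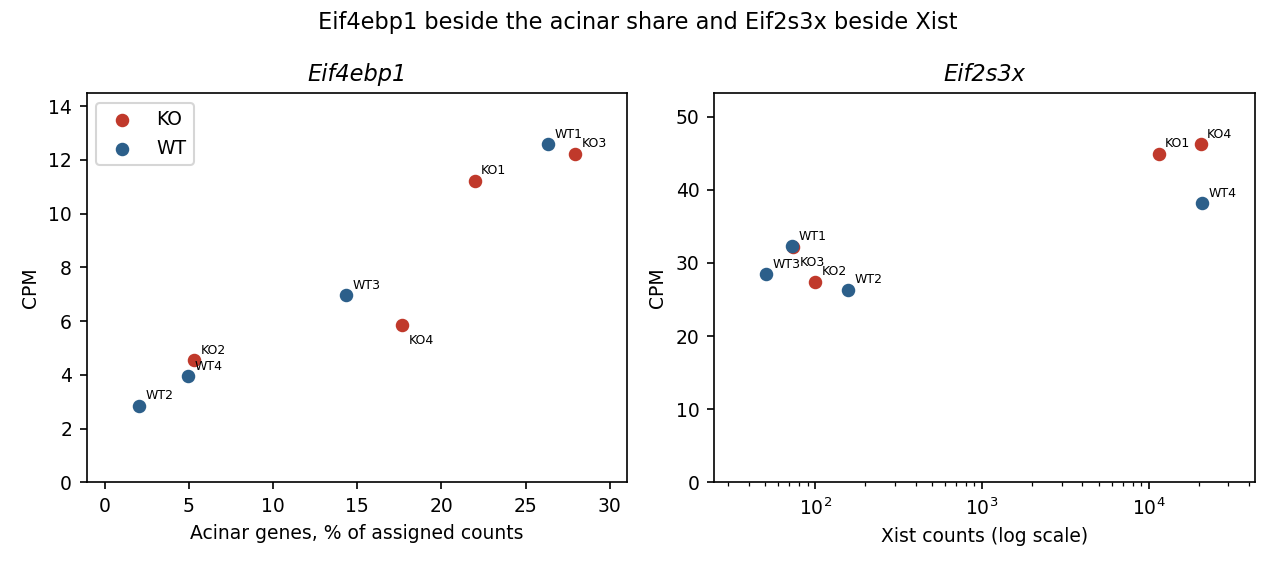
CPM (vertical axes, from 0) of Eif4ebp1 against the acinar share of counts and of Eif2s3x against Xist counts on a log scale, with a point for each KO and WT library. Eif4ebp1 is lowest in WT2 and highest in WT1, and the highest Eif2s3x levels, from 38.2 CPM, are in KO1, KO4 and WT4. The KO3 point lies under WT1 in the right panel.

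In edgeR's test, WT replicate 1, the acinar-richest WT library, decided whether any member was called. Without it, 11 of 59 members passed FDR 0.05 in edgeR's test (18.6%), all higher in KO, where 9.46% of all genes passed, 3.39% as higher and 6.08% as lower. They were Eef1b2 (log2 fold change 0.73 ± 0.15) of the elongation rows and, of the initiation rows, Eif1b (0.66 ± 0.12), Eif2s1 (0.64 ± 0.18), Eif3e (0.62 ± 0.11), Eif3m (0.71 ± 0.13), Eif4a1 (0.63 ± 0.15), Eif4a2 (0.35 ± 0.09), Eif5 (0.48 ± 0.11), Eif5b (0.52 ± 0.15) and the shared pair Eif3j1 and Eif3j2 (0.89 ± 0.14 each). The WT libraries that remain held 2.04 to 14.3% acinar counts, against 5.33 to 27.9% in KO. With the acinar share added to that fit, 3 members passed, Eif1b at 0.72 ± 0.16 and the shared pair, where 1.94% of all genes passed. The estimates of the other 8 did not all move alike. Those of Eif3e (0.62 ± 0.14, edgeR adjusted p = 0.0571), Eif3m (0.70 ± 0.16, adjusted p = 0.0588) and Eif4a2 (0.34 ± 0.12, adjusted p = 0.143) differed little from their values without the covariate, and missed the threshold with larger standard errors. Eif5 had 0.43 ± 0.14 and Eif2s1 had 0.48 ± 0.21. Eif4a1 had 0.45 ± 0.16, Eef1b2 had 0.46 ± 0.15 and Eif5b had 0.27 ± 0.13.

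A feature that some members share, and the rule did not use, is a snoRNA inside the gene. In the GENCODE M21 annotation 8 members hold at least 1 snoRNA on their own strand: Eef1b2, Eef2, Eif3a, Eif4a1, Eif4a2, Eif4g1, Eif4g2 and Eif5. Eif4a2 held the most, with 5, among them Snord2 and Snora81. The median log2 fold change was 0.23 over these 8 and 0.10 over the 51 other tested members. At an unadjusted p under 0.05, 4 of the 8 were higher in KO (Eef1b2, Eif4a1, Eif4a2 and Eif5), against 8 higher (the shared pair Eif3j1 and Eif3j2 among them) and 1 lower of the other 51, where 8.42% of all genes were higher and 10.3% lower. Of the same 8, 3 were higher at that p with the acinar share in the fit and 0 with no composition factor. Eef2, Eif3a, Eif4g1 and Eif4g2, which also hold snoRNAs, lay between -0.08 and 0.17, so the value was not common to all of them. The 5 members on chromosome 7, where the targeted Rpl13a locus lies, were Eef2k, Eif3c, Eif3f, Eif3k and Eif4g2, with log2 fold changes between -0.05 and 0.11.

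With all 8 libraries, genes that act with these factors showed no called difference in edgeR's test. Of 48 listed genes for release, recycling, poly(A) binding, eIF2 phosphatase, mTOR signalling, hypusine, diphthamide and mitochondrial translation, 47 were tested, 31 had positive values and the median log2 fold change was 0.08. None passed FDR 0.05 in edgeR's test, where 0.0147% of all genes did, while 3 were higher (6.38%) and 4 lower (8.51%) at an unadjusted p under 0.05, where 8.42% of all genes were higher and 10.3% lower. Without WT replicate 1, FDR 0.05 in edgeR's test was passed by 2 higher and 2 lower genes (8.51%), where 9.46% of all genes passed. In that fit 14 were higher (29.8%) and 10 lower (21.3%) at an unadjusted p under 0.05, where 12.2% of all genes were higher and 15.8% lower. DESeq2 called 1 of the 44 for which it gave an adjusted p, as lower in KO, where it called 5.34% of all genes, 3.29% as lower. It was Ppp1r15a, the stress-induced phosphatase subunit that reverses eIF2 phosphorylation, at 12.2 ± 1.77 CPM in KO and 19.05 ± 2.38 CPM in WT. Its log2 fold change in edgeR's fit was -0.65 ± 0.13 (SE, edgeR adjusted p = 0.116). The lower genes of next smallest p were Dph1 (-0.42 ± 0.17), which starts the diphthamide modification of eEF2, and Secisbp2 (-0.27 ± 0.12), which recodes stop codons as selenocysteine. The higher ones were the X-linked genes Mcts1 (0.62 ± 0.20), a reinitiation and recycling factor, and Ddx3x (0.47 ± 0.17), a helicase of scanning, followed by Hbs1l (0.34 ± 0.14) of ribosome rescue. Xist was high in KO replicates 1 and 4 and in WT replicate 4, and whether Mcts1 and Ddx3x follow it was not tested. Of the most similar gene sets, 79 ribosomal protein rows had a median of 0.24 with 64 positive, and 20 cytosolic aminoacyl-tRNA synthetase rows one of 0.09 with 13 positive. At an unadjusted p under 0.05, 7 of the ribosomal protein rows (8.86%) were higher in KO and 0 were lower. Of the synthetase rows 0 were higher and 2 (10%) lower, where 8.42% of all genes were higher and 10.3% lower.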

How the data were processed

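The labels' protocols give total RNA prepared with TRIZOL from hand-picked islets, DNase treatment and SeqPlex libraries, which amplify randomly primed cDNA. STAR 2.4.1, Partek and mm9 are named in the submitters' processing notes, while what each was used for, the annotation and the strand setting were not stated there. All 8 libraries share a run and lane, per the labels. The deposited table holds estimated counts per gene symbol made by the authors. In each library 9.98 to 12.4% of values lay over 0.01 from a whole number, including values of 16 members, and all were rounded. A second, scaled table was not used here.

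The 4 KO libraries were compared with the 4 WT libraries by the quasi-likelihood test of edgeR 4.0.16 (R 4.3.3) with TMM scaling, robust dispersions and the default filterByExpr filter. P-values were adjusted by Benjamini-Hochberg over 13617 genes and called at 0.05. An SE is the fold change divided by the square root of F. The fit was tested on simulated counts. Each library is a different mouse, per the labels' protocols, and no 2 libraries of a genotype were copies (smallest chi-square per degree of freedom 44.6). Alternatives used DESeq2 1.42.0, limma 3.58.1 with prior count 2, other scalings and filters, covariates and each library left out. Xist was called high from 1000 counts. Lengths and snoRNA positions are from GENCODE M21 of GRCm38, and starts from RefSeq on GRCm38.p6, which is not the submitters' build. All 60 members matched the first and 45 the second.

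The members, role classes, gene lists and the rule for named genes were chosen with earlier results of these data known. The rule named every elongation row, the 6 higher and 6 lower initiation rows of smallest p, the row of smallest p and the most abundant row of each complex with their paralogs, Eif2s3x, and 3 higher and 3 lower related genes. Other members are given to account for all rows, and were seen before they were named. The limit from a count of 0 covers counting error alone, because PCR copies cannot be told from separate molecules here. P-values set the difference between genotypes against the spread between mice of the same genotype.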

Additional observations from a re-analysis of the deposited data

Results flagged for a closer look

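In 124 groups of 4 libraries (each tested member in each genotype, with the list medians and the ratio of sums), a single library stood apart from the other 3 by Dixon's test at its 95% limit in 4, or 3.23%, where chance gives about 5%. Eif1 was at 242 CPM in KO replicate 1, against 345 to 358 CPM in the other KO libraries. Eif3e was at 10.9 CPM in WT replicate 1, against 7.07 to 7.33 CPM in the other WT libraries. Eef2k was at 8.66 CPM in KO replicate 3, against 6.33 to 6.71 CPM in the other KO libraries. Eif1ad, a relative of eIF1A with a log2 fold change of 0.16 ± 0.14 (SE), was at 7.16 CPM in KO replicate 4, against 5.70 to 5.93 CPM in the other KO libraries.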

How the results depend on the processing

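The count of all genes past FDR 0.05, 2 of 13617, was 48 with no composition factor and 526 with DESeq2, and with single libraries left out its range was 2 to 1313, with 5 without KO replicate 4 and 1313 without WT replicate 1. An alternative added after the data were seen, the acinar covariate without WT library 1, gave 269. Initiation rows past FDR 0.05 were 0 with all 8 libraries, 4 with DESeq2 (Eif1, Eif1b, Eif3m and Eif5), 3 in the added alternative, and 0 to 10 when each library was left out, and elongation rows 0 to 1. The elongation minus initiation difference of medians was 0.046 with classes by role, which used the same fit and changed only the rows counted. The elongation median was then 0.160 over 8 rows, against 0.093 by symbol, and the initiation median 0.114 over 40 rows, against 0.112 by symbol. With no composition factor the median of all genes was -0.11, and the initiation and elongation medians were 0.004 and -0.003. The replicate block (titles share numbers) gave 2 genes in all and 0 members, with medians of 0.11 for both classes. Same-numbered libraries had correlations of 0.038 to 0.21, and 2 of 4 KO libraries correlated best with their own number. Not every correlation passed the 0.1 asked for, so the numbers were not taken as pairs.

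Some small estimates changed sign, and the cause was not tested. With no composition factor Eef1a2 was -0.065, Eef1d -0.0080 and Eef2k -0.10. With Xist as a covariate Eef1a2 was -0.17 and Eef2kmt 0.046. With the acinar share Eef1e1 was -0.12, Eef2k -0.065 and Eif4ebp1 -0.075, and in the added alternative Eef2k was -0.10 and Eif2b2 -0.0096. Leaving out each library gave ranges of -0.14 to 0.45 for Eef1a2, -0.062 to 0.18 for Eef1akmt1, -0.10 to 0.35 for Eef1e1, -0.093 to 0.080 for Eef2k, -0.11 to 0.061 for Eef2kmt, -0.030 to 0.28 for Eif2b2 and -0.12 to 0.061 for Eif3k. The other 26 members named by the rule kept their direction in every alternative with a value. Standard errors over the tested members lay between 0.087 and 0.55, with a median of 0.13.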

Other observations

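Paralog ratios, which need no scaling between libraries, overlapped between genotypes. Counts of Eef1a1 over Eef1a2 were 320 to 1158 in KO and 269 to 826 in WT libraries, so the muscle and neuron form was a small part of the message in all 8. Counts of Eif4a1 over Eif4a2 were 2.51 to 4.17 in KO and 2.03 to 3.18 in WT, and those of Eif5a over Eif5a2 were 12.2 to 21.6 in KO and 10.9 to 19.3 in WT. Eif1 over Eif1b was 9.91 to 14.0 in KO and 12.1 to 13.4 in WT.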
